A study of Mus musculus with 12 samples.

Results

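The miRNAs mmu-miR-1a-3p, mmu-miR-133a-3p, mmu-miR-133b-3p and mmu-miR-206-3p are the main products of the muscle miRNA genes, and they were followed here in small-RNA libraries of mouse hippocampus. They were chosen by name in the deposited count table, 4 of its 1908 miRNAs. All 4 had counts in each of the 12 libraries, and 3 passed the filter on low counts (filterByExpr), as did 521 miRNAs in all; miR-206-3p did not. The names were proposed with results of these libraries known, among them the genotype values of miR-133b-3p, so levels and genotype values of the 4 are given as a description and support nothing by themselves.

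The libraries came from male C57BL/6 mice aged 3 months, 6 wild type (WT) and 6 labelled GLD2-/- (GLD2KO), littermates of heterozygous matings. Gld2 encodes a poly(A) polymerase that adds nucleotides to the 3′ ends of RNAs, and the study addresses its part in untemplated additions to miRNAs. The table gives a count per miRNA and library, so only relative abundance was compared here; the Gld2 mRNA and added nucleotides were not analysed, and the genotypes are as labelled. In bulk tissue, fewer cells of a type and less miRNA per cell cannot be told apart.

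MiR-1 and miR-133 are the classic miRNAs of skeletal and heart muscle, where a hairpin of each is transcribed together from paired loci: miR-1 promotes differentiation of muscle cells and miR-133 acts on their proliferation through factors such as SRF. MiR-206 and miR-133b form a further pair, with miR-206 restricted mainly to skeletal muscle. In brain these miRNAs are rare, although miR-133b has been described in midbrain dopaminergic neurons and miR-206 as a repressor of BDNF.

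The sequences of miR-206-3p and miR-133b-3p represent the seed families and are shown, from RefSeq on GRCm38.p6, with the seed (bases 2 to 8 from the 5′ end) in capitals; 2 of the 4 names matched that table.
miR-206-3p: uGGAAUGUaaggaagugugugg
miR-133b-3p: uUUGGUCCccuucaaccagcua
MiR-1a-3p belongs to the seed family of miR-206-3p, and miR-133a-3p to that of miR-133b-3p. Among the 1603 listed names with a RefSeq mature sequence, the seed GGAAUGU was carried by miR-206-3p, miR-6349 and miR-6382, and the last pair had 0 counts in all libraries. The seed UUGGUCC was carried by miR-133b-3p alone of those 1603. MiR-133a-3p and miR-133b-3p are near-identical and differ only at the 3′ end, the end on which Gld2 acts. How a read with an altered 3′ end was assigned is not given in the sources used here, so the split between these miRNAs is uncertain. No other name had the same counts as any of the 4 in all libraries.

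The hairpins of miR-206 and miR-133b lie on the same strand of chromosome 1, with 3686 bases between them, and both are in an exon of the noncoding gene Gm28653 (named Lincmd1 in RefSeq). They are printed with the annotated 5p and 3p arms in capitals, to show the strands that the counts separate.
Mir206 (GRCm38.p6, chr1:20679010-20679082, plus strand): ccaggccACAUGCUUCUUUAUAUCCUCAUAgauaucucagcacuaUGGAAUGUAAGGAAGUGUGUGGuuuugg
Mir133b (GRCm38.p6, chr1:20682769-20682887, plus strand): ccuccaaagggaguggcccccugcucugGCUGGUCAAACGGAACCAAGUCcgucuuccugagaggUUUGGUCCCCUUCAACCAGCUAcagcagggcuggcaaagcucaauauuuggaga

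MiR-1a-3p and miR-133a-3p each come from a hairpin on chromosome 2 and another on chromosome 18, and their counts cannot be divided between the loci. Mir1a-1 (GRCm38, chromosome 2, 180389048 to 180389124) and Mir133a-2 (180398379 to 180398482) lie on the plus strand with 9254 bases between them, within the RefSeq span of Mir1a-1hg. Mir1a-2 (chromosome 18, 10785481 to 10785552) and Mir133a-1 (10782909 to 10782976) lie on the minus strand with 2504 bases between them, in introns of Mir133a-1hg and antisense to an intron of Mib1.

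Libraries held 2197915 to 3761106 counts, with scaling factors (TMM) of 0.747 to 1.36, and levels are given as counts per 1000000 scaled counts (CPM). Of the neuronal markers 5 of 5 (miR-124-3p, miR-9-5p, miR-128-3p, miR-132-3p and miR-138-5p) were detected. Their summed level was 108763 to 361209 CPM over WT libraries and 148478 to 273716 CPM in GLD2KO. These levels bear on neural tissue and do not single out hippocampus, which is as labelled. WT replicate 3 stood apart from the other WT libraries in several of the values below. It had the lowest total of the WT libraries (2254812), and its part in the values it moves most is given beside them.

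Together the 4 muscle miRNAs made up 0.0161 ± 0.00222% of the counts of WT libraries, and 0.0193 ± 0.00844% for GLD2KO (SD, 6 libraries each). In order of level they were miR-1a-3p at a mean of 83.3 CPM over the 12 libraries, miR-133a-3p at 68.5 CPM, miR-133b-3p at 19.3 CPM and miR-206-3p at 2.93 CPM. By mean level they ranked 239, 254, 367 and 543 among the 1908 listed miRNAs, of which 1325 had a count. The neighbours in level were miR-148b-3p (84.4 CPM) and miR-344d-3p (82.3 CPM) around miR-1a-3p, miR-376a-5p (69.4 CPM) and miR-423-5p (66.7 CPM) around miR-133a-3p, and miR-339-3p (19.5 CPM) and miR-301a-5p (19.3 CPM) around miR-133b-3p. The order of the upper pair was not fixed, as miR-1a-3p exceeded miR-133a-3p in 8 of 12 libraries. MiR-133a-3p exceeded miR-133b-3p, and miR-133b-3p exceeded miR-206-3p, in 12 of 12. Ligation differs between miRNA sequences, so an order between different miRNAs is less certain than a comparison of the same miRNA between libraries.

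**Figure D1:**
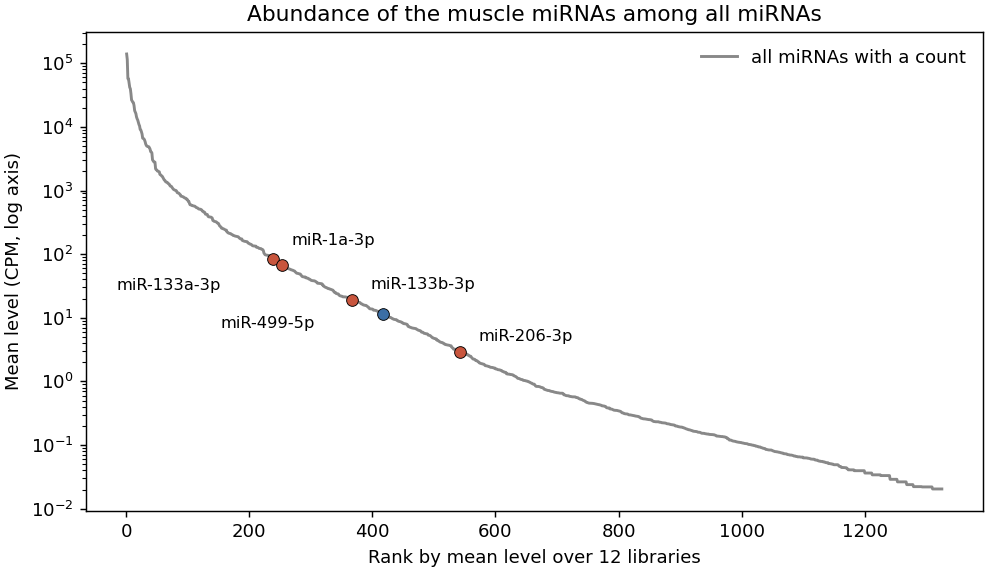
Mean level over 12 libraries (CPM, log axis) against rank for every miRNA with a count (grey line), with the 4 muscle miRNAs in red and the myosin-intron miR-499-5p in blue. The 4 lie at ranks 239, 254, 367 and 543, from 83.3 down to 2.93 CPM.

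MiR-1a-3p, the guide strand of the miR-1 hairpins, ranged from 41.6 to 142 CPM in WT, with a median of 87.0 CPM (123 to 385 counts). In GLD2KO it ranged from 20.0 to 131 CPM, with a median of 91.7 CPM (41 to 377 counts). The genotypes overlapped over most of their range, and GLD2KO replicates 1 and 6 were the lowest of all libraries, at 20.0 and 27.0 CPM. WT libraries averaged 86.9 ± 36.8 CPM, against 79.7 ± 46.4 CPM for GLD2KO (SD, 6 libraries each). The log2 fold change, GLD2KO minus WT, was -0.12 (SE 0.48; 95% interval -1.12 to 0.87). This value had no stable sign: it was 0.082 without WT replicate 1, 0.084 without GLD2KO replicate 1, 0.060 without GLD2KO replicate 6 and 0.088 when scaled by library totals. The coefficient of variation was 42.4% in WT and 58.3% in GLD2KO, against 6.17% and 6.80% from counting error alone.

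MiR-133a-3p, the guide strand of its partner hairpins, ranged from 43.7 to 147 CPM in WT, with a median of 49.1 CPM (112 to 250 counts). In GLD2KO it ranged from 39.9 to 98.3 CPM, with a median of 78.6 CPM (84 to 305 counts). With TMM scaling WT replicate 3 alone stood at 147 CPM, the highest of all libraries. The other WT libraries lay between 43.7 and 60.0 CPM. Its distance depended on the scaling. Per library total WT replicate 3 stood at 111 CPM, WT replicate 6 at 79.5 CPM and GLD2KO replicate 2 higher than both at 117 CPM. WT libraries averaged 65.8 ± 40.3 CPM, against 71.2 ± 21.9 CPM for GLD2KO, and the WT mean without replicate 3 was 49.6 ± 6.30 CPM (SD, n = 5). The log2 fold change was 0.12 (SE 0.41; 95% interval -0.73 to 0.97), and 0.58 without WT replicate 3. It turned to -0.017 without WT replicate 2 and to -0.0076 without GLD2KO replicate 2.

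MiR-133b-3p ranged from 8.83 to 17.1 CPM in WT, with a median of 12.7 CPM (15 to 68 counts). In GLD2KO it ranged from 17.6 to 33.2 CPM, with a median of 23.5 CPM (37 to 94 counts). At this scaling the lowest GLD2KO library, replicate 4 at 17.6 CPM, lay just above the highest WT library, replicate 5 at 17.1 CPM. Such a separation, with all GLD2KO above all WT libraries, was seen for 0.384% of the tested miRNAs. It depended on the scaling: per library total, GLD2KO replicate 4 (13.8 CPM) lay below WT replicates 2, 5 and 6 (14.9, 19.4 and 22.1 CPM), and 5 of 6 GLD2KO libraries lay above all WT libraries. With RLE factors the highest WT library stood at 16.8 CPM and the lowest GLD2KO library at 17.4 CPM, and with upper-quartile factors these were 16.8 and 19.5 CPM, so the groups did not overlap under either. WT libraries averaged 13.3 ± 3.21 CPM and GLD2KO libraries 25.4 ± 6.31 CPM, a ratio of 1.91 (SD, 6 libraries each). The log2 fold change was 0.93 (SE 0.35; 95% interval, not adjusted for the number of miRNAs, 0.19 to 1.67), and 0.85 to 1.04 without each library in turn. Its spread within genotypes was small: the SD of its log2 CPM was 0.35, against a median of 0.81 over the 521 tested miRNAs, and 0.96% of them had a smaller one. A prior count of 2 narrows this spread for miRNAs with few counts.

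MiR-206-3p, the skeletal muscle miRNA of the miR-133b locus, was near the limit of detection. It ranged from 1.58 to 6.13 CPM in WT, with a median of 2.60 CPM (3 to 15 counts). In GLD2KO it ranged from 0.436 to 5.33 CPM, with a median of 2.61 CPM (1 to 20 counts). The genotypes overlapped, with WT replicate 1 the highest library and GLD2KO replicate 6, with 1 count, the lowest. Means were 3.11 ± 1.79 and 2.75 ± 1.57 CPM (SD, n = 6 each), and counting error alone gives coefficients of variation of 32.4% and 35.7%. When no filter was applied, its log2 fold change was -0.18. Its sign was not stable: among fits with 1 library left out in which it passed the filter, it was -0.16 without WT replicate 3 and 0.11 without GLD2KO replicate 6.

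**Figure D2:**
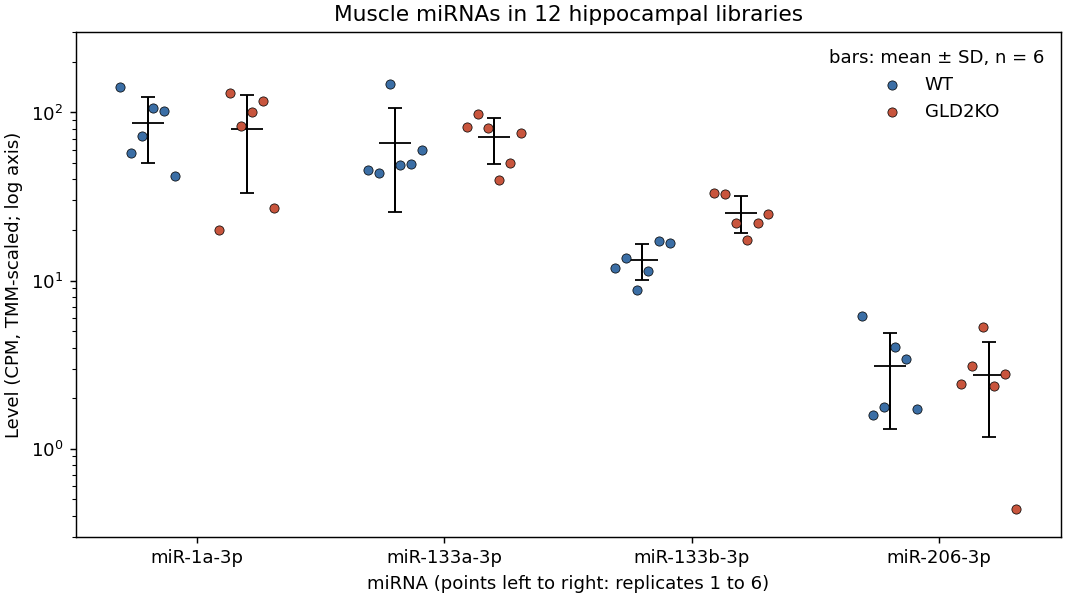
Level of each muscle miRNA (CPM, TMM-scaled, log axis) in every library, with WT in blue and GLD2KO in red; bars give the mean ± SD of 6 libraries. MiR-133b-3p lies at 8.83 to 17.1 CPM in WT, against 17.6 to 33.2 CPM for GLD2KO, the other 3 overlap between genotypes, and WT replicate 3 stands alone at 147 CPM for miR-133a-3p.

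Across all 521 tested miRNAs, edgeR's quasi-likelihood test called 0 between genotypes (0%) at a Benjamini-Hochberg adjusted p of 0.05, so none of the 3 tested muscle miRNAs passed. The lowest adjusted p of the whole table was 0.815, and 25 miRNAs had an unadjusted p under 0.05. By DESeq2 0 of 1317 were called and 45 had such an unadjusted p; by limma-voom the counts were 0 and 23 of 521. Of the 3 tested muscle miRNAs 2 had a fold change above 0, as did 58.7% of all tested, and their median log2 fold change was 0.12, next to a median of 0.12 over all tested. The labels describe separate mice, so these tests measure the spread between animals and libraries together.

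**Figure D3:**
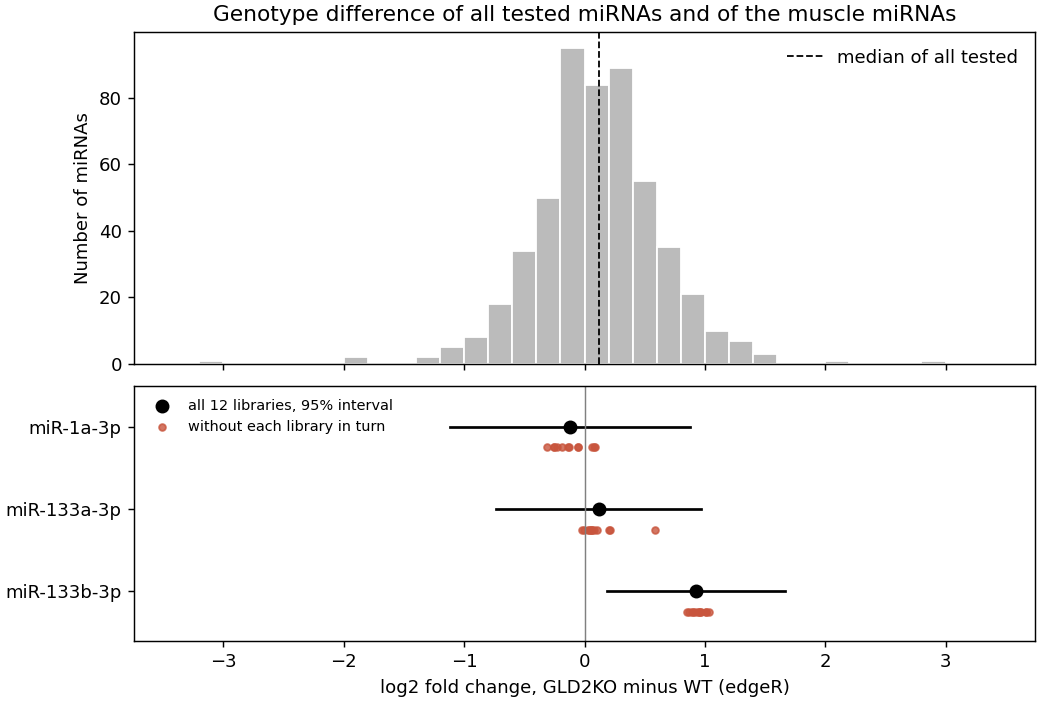
Upper panel, number of miRNAs by log2 fold change (GLD2KO minus WT) for all 521 tested miRNAs, with their median (dashed line); lower panel, the 3 tested muscle miRNAs with 95% intervals (black) and the values without each library in turn (red). MiR-133b-3p stays between 0.85 and 1.04, while miR-1a-3p and miR-133a-3p lie on both sides of 0.

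The proportion of the partner miRNAs of the paired loci varied widely from library to library, and their levels were not correlated beyond the test. The ratio of miR-133a-3p to miR-1a-3p counts, with a pseudocount of 0.5, ranged from 0.323 in WT replicate 1 to 4.04 in GLD2KO replicate 1, a span of 12.5-fold. It was also above 1 in GLD2KO replicate 6 (2.79), WT replicate 3 (2.03) and WT replicate 6 (1.44), and below 1 in the other 8 libraries. The log2 ratio averaged -0.44 ± 1.03 over WT libraries, against 0.084 ± 1.39 for GLD2KO (SD, 6 libraries each). Counting error is small beside this span, as the lowest counts were 41 for miR-1a-3p and 84 for miR-133a-3p. The ratio of miR-206-3p to miR-133b-3p counts ranged from 0.026 to 0.525, a span of 20.1-fold, but it rests on 1 to 20 counts of miR-206-3p. That miRNA did not pass the filter and was left out of the correlations.

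Over the 12 libraries, the correlation of log2 CPM between miR-1a-3p and miR-133a-3p was r = -0.28 (permutation p = 0.384, adjusted 0.576 over 3 pairs) with rho = -0.27 (permutation p = 0.403, adjusted 0.470). It was r = -0.24 within WT (exact permutation p = 0.713, n = 6) and r = -0.30 within GLD2KO (exact permutation p = 0.597, n = 6). Without the 2 libraries farthest from the median of miR-1a-3p, GLD2KO replicates 1 and 6, r was -0.11 (permutation p = 0.755). For miR-1a-3p and miR-133b-3p, r was -0.35 (permutation p = 0.267, adjusted 0.576) and rho was -0.23 (permutation p = 0.470, adjusted 0.470). That value was -0.29 within WT (exact permutation p = 0.564, n = 6) and -0.40 within GLD2KO (exact permutation p = 0.386, n = 6), and it turned to 0.25 without the same pair of libraries (permutation p = 0.493). Among the 520 other tested miRNAs ordered by r with miR-1a-3p, miR-133a-3p came at place 423 and miR-133b-3p at place 462. All libraries share the scaling, and the pairs share the library.

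The relation between miR-133a-3p and miR-133b-3p depended on WT replicate 3. With TMM scaling that library was highest in the former and lowest in the latter of all libraries. Over the 12 libraries r was 0.15 (permutation p = 0.633, adjusted 0.633 over 3 pairs) and rho was 0.36 (permutation p = 0.247, adjusted 0.470). Without WT replicate 3 it was 0.82 (permutation p = 0.00249, adjusted 0.00747), a value that leaves out the library with the largest gap between the members. Without the 2 libraries farthest from the median of miR-133a-3p, WT replicate 3 and GLD2KO replicate 2, it was 0.75 (permutation p = 0.0125, adjusted 0.0375). Both values leave out WT replicate 3, so the second is not a separate check. They also include the genotype difference: without WT replicate 3 the log2 fold changes were 0.58 for miR-133a-3p and 0.90 for miR-133b-3p. Within GLD2KO r was 0.83 (exact permutation p = 0.05, adjusted 0.15, n = 6), and within WT it was -0.63 (exact permutation p = 0.194, adjusted 0.583, n = 6). The negative value within WT rests on WT replicate 3: over the other 5 WT libraries, too few for a test here, r was 0.59. Reads shared between these near-identical miRNAs could not be separated.

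The ratio of miR-133b-3p to miR-133a-3p counts shows the same library. In WT replicate 3 it was 0.0619 (15 against 250 counts), while in the other 11 libraries it lay between 0.238 and 0.444. The median ratio was 0.270 in WT and 0.369 in GLD2KO. The log2 ratio averaged -2.18 ± 0.921 over WT libraries, against -1.45 ± 0.279 for GLD2KO (SD, 6 libraries each). Without WT replicate 3 the WT mean was -1.81 ± 0.216 (SD, n = 5), and the difference between genotypes went from 0.72 to 0.36 on the log2 scale. The genotypes overlapped, as WT replicates 2, 5 and 6 (0.314, 0.347 and 0.279) exceeded GLD2KO replicate 3 (0.273).

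**Figure D4:**
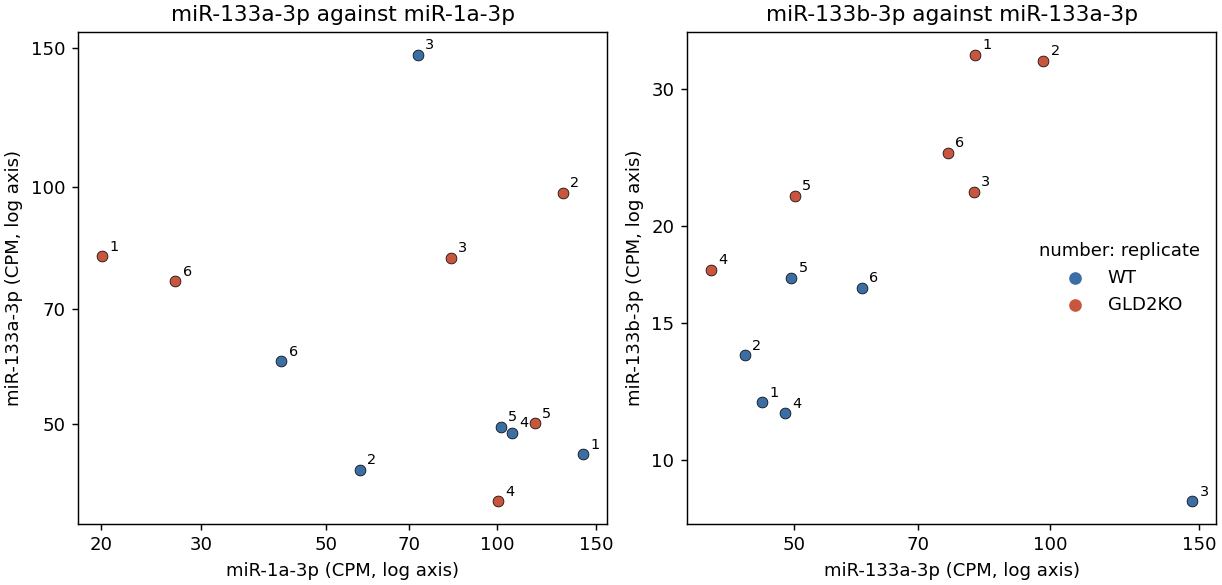
Levels (CPM, log axes) of miR-133a-3p against miR-1a-3p (left) and of miR-133b-3p against miR-133a-3p (right), 1 point per library with its replicate number, WT in blue and GLD2KO in red. GLD2KO replicates 1 and 6 lie at the left of the left panel (20.0 and 27.0 CPM of miR-1a-3p), and WT replicate 3 lies alone at the lower right of the right panel.

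The miRNAs with the patterns most like the members, by Pearson's r of log2 CPM over 12 libraries, differed between the 3. For miR-1a-3p they were miR-203-3p (r = 0.77), miR-134-5p (0.74), miR-874-3p (0.73), miR-378a-5p (0.71) and miR-99b-5p (0.71). For miR-133a-3p they were miR-335-5p (0.79), miR-34a-5p (0.79), miR-27b-3p (0.72), miR-27a-3p (0.71) and miR-503-5p (0.71). For miR-133b-3p they were miR-219a-2-3p (0.87), miR-770-3p (0.85), miR-193b-3p (0.81), miR-297a-5p (0.80) and miR-149-5p (0.76). These values are the highest of many and are given as a description. For miR-133b-3p they include the genotype difference: as deviations from the genotype means, r was 0.66 with miR-219a-2-3p, 0.81 with miR-770-3p, 0.74 with miR-193b-3p, 0.53 with miR-297a-5p and 0.56 with miR-149-5p.

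The other strands of the muscle hairpins were scarce, with 0 to 17 counts in any library. MiR-133a-5p had 79 counts in 11 libraries, or 3.40% of the counts of both miR-133a strands (95% Wilson interval 2.74 to 4.22%). By genotype, with libraries pooled, the share was 2.56% in WT (29 of 1132 counts) and 4.21% in GLD2KO (50 of 1189), a difference that was not tested. MiR-133a-5p ranged from 0 to 3.18 CPM in WT, against 1.42 to 6.76 CPM for GLD2KO, and the genotypes overlapped. MiR-133b-5p had 1 count against 654 for miR-133b-3p, and miR-206-5p had 0 against 104 for miR-206-3p, which allows a share of up to 2.88%. These intervals and limits cover counting error only.

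The 5p strands of miR-1a separate its loci. The chromosome 2 strand, miR-1a-1-5p, is printed beside miR-206-5p, of which 0 counts were found, to show how alike these miRNAs are (seed in capitals).
miR-206-5p: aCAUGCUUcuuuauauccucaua
miR-1a-1-5p: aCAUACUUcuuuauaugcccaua
They are identical at 20 of 23 positions, and from miR-206-5p to miR-1a-1-5p the changes are G5A, C17G and U19C, counted from the 5′ end.

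MiR-1a-1-5p had 11 counts in 5 libraries, and the chromosome 18 strand, miR-1a-2-5p, had 39 counts in 10 libraries. Together they made 1.71% of miR-1a counts (95% Wilson interval 1.299 to 2.246%). By genotype, with libraries pooled, the share was 2.17% in WT (35 of 1613 counts) and 1.14% in GLD2KO (15 of 1312). That difference was not tested and rests on few libraries. Of the 28 WT counts of miR-1a-2-5p, WT replicate 5 held 13 and WT replicate 2 held 8, while WT replicate 4 had 0. MiR-1b is annotated on the strand opposite to Mir1a-2 (chromosome 18, 10785446 to 10785567): miR-1b-5p had 59 counts, 1 to 10 in each of the 12 libraries, and miR-1b-3p had 12. Whether strand was used in counting is not given, so reads of miR-1b and miR-1a-2 are uncertain as separate values. MiR-133c had 0 counts.

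Of the miRNAs in introns of myosin genes, which in heart and skeletal muscle accompany the genes of contraction, miR-499-5p alone was found. The 2 strands of miR-208a and of miR-208b and miR-499-3p were at 0 in all libraries, which over 33520930 counts allows up to 0.0895 per 1000000 counts. MiR-499-5p, from an intron of Myh7b (Mir499, chromosome 2, 155622880 to 155622958), ranged from 7.65 to 24.1 CPM in WT and from 5.38 to 22.8 CPM in GLD2KO. The libraries at the top were WT replicate 3 (24.1 CPM) and GLD2KO replicate 4 (22.8 CPM), and the next was GLD2KO replicate 5 (13.9 CPM). Its log2 fold change was -0.16 (SE 0.44; edgeR adjusted p = 0.978), and without WT replicate 3 it was 0.17 (SE 0.41; edgeR adjusted p = 0.995).

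Markers of other cell types were read in the same libraries. Vessel wall miRNAs (6 of 6 detected: both strands of miR-143, miR-145a and miR-126a) summed to 4847 to 16087 CPM in WT, against 6687 to 10290 CPM for GLD2KO. WT replicate 3 was the highest and GLD2KO replicate 1 next. Log2 fold changes within this list ran from -1.27 for miR-145a-5p to 0.64 for miR-143-5p, none called. Of 5 red cell names 3 were matched in the table, miR-451a and both strands of miR-144, and all 3 were detected. They summed to 678 to 22971 CPM over WT and 1182 to 24306 CPM over GLD2KO libraries, with WT replicate 3 the lowest. The names miR-486a-5p and miR-486b-5p were not matched. The table does hold miR-486-5p, which was tested and not called, but it is not part of this sum. Choroid plexus miRNAs (miR-204-5p, miR-204-3p and miR-211-5p, 3 of 3 detected) summed to 1405 to 4926 CPM in WT and 784 to 13427 CPM in GLD2KO. Most of that sum was miR-204-5p (mean 3113 CPM in WT, 4973 CPM in GLD2KO). The members did not go the same way. Log2 fold changes were 0.68 for miR-204-5p, 1.20 for miR-204-3p and -1.21 for miR-211-5p, none called. GLD2KO replicates 1 and 6, both lowest in miR-1a-3p, were the lowest and the highest for that list. The liver miRNA miR-122-5p lay at 4.90 to 16.6 CPM in WT, against 1.47 to 17.0 CPM for GLD2KO, and was lowest in GLD2KO replicate 1 and highest in GLD2KO replicate 6. The part of these cell types in the levels of the muscle miRNAs was not tested. Of the other muscle markers, miR-208a-3p and miR-208b-3p were at 0 in all libraries, while miR-499-5p was found in each of the 12.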

How the data were processed

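Hippocampal RNA of 12 mice was extracted with TRIzol, size-selected on a gel and sequenced on an Illumina HiSeq instrument, per the labels' protocols; the sources state the lower size bound in ways that differ. Trimming tools (Trimmomatic 0.32 and cutadapt 1.3) and the build GRCm38 are named in the submitters' processing notes. The aligner, the counter and how shared reads were treated: not given in the sources used here. Raw counts, whole numbers per miRNA and library, make up the deposited table. Its 1 row that names no miRNA held 0 counts (0% of all counts) and was left out.

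The genotype test was edgeR 4.0.16 in R 4.3.3 (filterByExpr, TMM, glmQLFit and glmQLFTest) over all 521 kept miRNAs, with 99.96% of counts; log2 CPM used a prior count of 2. Intervals on fold changes come from the same model. Correlations were tested by two-sided permutation with 100000 resamples, or exactly over 720 orderings for 6 libraries, in Python 3.11.15 with numpy 2.4.6. Both tests were tested on simulated data. Alternatives were DESeq2 1.42.0, limma-voom (limma 3.58.1), other scalings, filters, prior counts and pseudocounts, a robust fit, the replicate number as a block, and leaving out each library.

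The members and lists were chosen with earlier results of these data known. Named beside the members were listed relatives, the 5 miRNAs with the highest r for each tested member, the neighbours in level, and marker lists. The miRNAs that share a seed with a member were named after the search. Positions come from GENCODE M21 and RefSeq, both on GRCm38.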

Additional observations from a re-analysis of the deposited data

Results flagged for a closer look

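A single distant library was found in 5 of the 28 sets of 6 values examined, and chance flags about 1 in 20, or 1.4; the sets share libraries and 2 of them hold the same values. In WT replicate 3, miR-133a-3p reached 147 CPM with TMM scaling, and the remaining WT libraries lay at 43.7 to 60.0 CPM. Per library total the gap was smaller, at 111 CPM against 34.2 to 79.5 CPM. In the same library the log2 ratio of miR-133b-3p to miR-133a-3p counts was -4.01 against -2.07 to -1.53, and miR-499-5p reached 24.1 CPM against 7.65 to 11.4 CPM. The list of other muscle markers gave the same 24.1 CPM, as miR-499-5p was its 1 detected member. In WT replicate 2 the red cell markers summed to 22971 CPM against 678 to 8692 CPM. The part of any of these in the others was not tested.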

How the results depend on the processing

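The count of 0 miRNAs called between genotypes held under each alternative run, including each library left out (0 to 0), except with no low-count filter, where edgeR called 7 of 1325, none of them a muscle miRNA. The log2 fold change of miR-133b-3p lay between 0.89 and 0.97 under the other settings and between 0.85 and 1.04 without each library. For miR-1a-3p it was -0.31 to 0.084 and for miR-133a-3p -0.017 to 0.58 without each library, and with library totals that of miR-1a-3p was 0.088. Correlations without each library ran from -0.43 to -0.20 for miR-1a-3p and miR-133a-3p, from -0.58 to -0.071 for miR-1a-3p and miR-133b-3p, and from -0.0088 to 0.82 for miR-133a-3p and miR-133b-3p. Without the 2 libraries farthest from the median they were 0.25 for miR-1a-3p and miR-133b-3p and 0.75 for the miR-133 pair. The latter was past the threshold, but it again leaves out WT replicate 3 and includes the genotype difference. Per library total r was -0.066 for miR-1a-3p and miR-133a-3p, -0.014 for miR-1a-3p and miR-133b-3p (rho 0.27) and 0.44 for the miR-133 pair (permutation p = 0.152, adjusted 0.457), and as deviations from the genotype means the miR-133 pair gave 0.0046. Mean levels and the mean log2 ratio moved by less than 1 SD. With the replicate number as a block 0 were called, at log2 fold changes of -0.25, 0.20 and 0.93 for miR-1a-3p, miR-133a-3p and miR-133b-3p. Same-numbered libraries deviated together at r from -0.23 to 0.24. Of the 12 libraries 2 matched their own number best, WT and GLD2KO replicate 1. Taking deviations from the genotype means lowers r within a genotype, which favours best matches between genotypes. The r of same-numbered libraries is between genotypes and is not lowered in this way. It was above 0 for replicates 1 and 6 and below 0 for replicates 2 to 5, so same-numbered libraries did not deviate together throughout. These values alone do not decide whether same-numbered mice were paired. Counts of 1 to 20 limit miR-206-3p. The cause of each change was not tested.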
